A study of Rattus norvegicus with 12 samples.

Results

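MHC class I molecules and the immunoproteasome were followed through 10 genes of rat liver: the class I heavy chain genes RT1-A3 and RT1-N3, the light chain gene B2m, the peptide transporter genes Tap1 and Tap2, the catalytic immunosubunit genes Psmb8, Psmb9 and Psmb10, and the PA28 activator genes Psme1 and Psme2. A probe set was taken when its gene symbol in the deposited sheet, or an older synonym of it, named one of these genes. These are 10 of the 13888 genes named in the sheet, and they were measured by 17 of its 31042 probe sets. RT1-A3 had 4, RT1-N3, B2m, Tap1 and Psme1 had 2 each, and the other 5 genes had 1.

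Sprague-Dawley rats, 12 weeks old per the labels, were given a high-fat emulsion to produce a nonalcoholic fatty liver, and RNA from the middle of the right liver lobe was hybridised to Affymetrix Rat Genome 230 2.0 arrays. The labels give this same age for all 12 arrays, 0h and fed alike. For the fed groups it therefore cannot be the age both at the start of feeding and at sampling. The 12 arrays form 4 groups of 3: livers labelled normal, taken at 0h, and livers taken after 2 weeks, 4 weeks or 6 weeks of the emulsion. The labels describe the 3 arrays of a group as technical replicates. The number of rats per group is not stated in the sources used here, so p-values measure only the spread between these arrays, which may be technical. No unfed liver was taken at a later time, so the effect of the emulsion and that of elapsed time cannot be told apart.

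Class I molecules show peptides from inside the cell to CD8+ T cells. The peptides are cut by the proteasome, carried into the endoplasmic reticulum by the Tap1 and Tap2 transporter and bound there by a heavy chain paired with B2m. Interferon gamma induces immunosubunits that replace the constitutive catalytic subunits of the proteasome, Psmb8 in place of Psmb5, Psmb9 in place of Psmb6 and Psmb10 in place of Psmb7. It also induces PA28, a cap made of Psme1 and Psme2 that speeds peptide release.

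The arrays had median signals of 117.6 to 130.0, and the median SD between the arrays of a group was 0.17 on the log2 scale over the probe sets tested. The log2 ratio of the 3′ to the 5′ GAPDH probe sets, a sign of RNA integrity, averaged 0.16 ± 0.08 in 0h liver, 0.47 ± 0.03 in 2-week liver, 0.33 ± 0.03 in 4-week liver and 0.33 ± 0.04 in 6-week liver (SD, n = 3 each). The actin ratio ordered the groups differently, at 1.23 ± 0.18, 1.42 ± 0.12, 1.18 ± 0.22 and 1.44 ± 0.07 in the same order. The part of RNA integrity in the results below was not tested. The 7 hepatocyte markers, albumin among them, had a summed signal between 206348 and 266659 over the 12 arrays, with all 4 groups overlapping. Whether the brightest of them, such as Tf at a mean of 47219.7 in 0h liver, were near saturation was not tested. Of these markers Apoa1 rose in 2-week liver (0.44 ± 0.09) and fell in 6-week liver (-0.38 ± 0.09), and Tat fell in 4-week liver (-1.20 ± 0.06) and 6-week liver (-0.36 ± 0.06), as log2 changes called by limma. No other hepatocyte marker was called.

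Most of these genes share a short repeat in their promoters, and the stretches that hold it are shown because it is the known site of interferon control of class I genes. The repeat is GAAA, any 2 bases, then GAAA, the core of the element bound by interferon regulatory factors, and it was searched on both strands of RefSeq promoter windows (assembly GRCr8, 250 bases before to 50 after each gene's start). It was found in 7 of the 10 member promoters, in 2 of the 14 matched promoters of constitutive core subunits and Psme3, and in 1312 of all 33469 promoters (3.92%). Searched in the same way were TTC, any 3 bases, GAA, the interferon gamma activated site, and the same letters with 4 bases between. The first was in 1 of the 10 member promoters, 0 of the 14 and 8.87% of all. The second was in 0 of the 10, 2 of the 14 and 7.28% of all. Each line below gives the strand that reads as the repeat, with the repeat in capitals and 12 bases on each side.
B2m: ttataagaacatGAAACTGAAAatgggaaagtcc
Psme2: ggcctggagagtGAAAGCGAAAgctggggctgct
Psmb10: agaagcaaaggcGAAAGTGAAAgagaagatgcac
Psmb10: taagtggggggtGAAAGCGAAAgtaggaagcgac
RT1-N3: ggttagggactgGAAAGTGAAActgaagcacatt
Tap2: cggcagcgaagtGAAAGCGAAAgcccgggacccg
Psmb8: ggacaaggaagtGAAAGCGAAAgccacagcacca
Tap1: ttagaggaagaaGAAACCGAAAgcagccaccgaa

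These stretches lie at chr3:129549168-129549201 on the plus strand for B2m and at chr15:33052783-33052816 on the minus strand for Psme2. Those of Psmb10 are at chr19:50743344-50743377 and chr19:50743288-50743321, both on the minus strand. On chromosome 20 they are at chr20:2666270-2666303 (minus) for RT1-N3, chr20:4652316-4652349 (minus) for Tap2, chr20:4657014-4657047 (plus) for Psmb8 and chr20:4668643-4668676 (plus) for Tap1. Along the gene the repeat began 150 bases before the start of B2m, 53 before that of Psme2, 73 and 17 before that of Psmb10, and 41 before that of Tap2. For RT1-N3, Psmb8 and Tap1 it stood on the strand opposite to the gene, at 207, 4 and 121 bases before the start. Psmb8, Psmb10, Tap2 and Psme2 share the 10 bases GAAAGCGAAA. The windows of Psme1, Psmb9 and RT1-A3 did not contain these letters. The Psmb9 window begins at chr20:4668750, past the Tap1 stretch, which lies between the starts of Tap1 and Psmb9. The absence for Psmb9 therefore holds for this window only. A match is a description of the letters and not evidence of binding.

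In the RefSeq gene order, Tap2, Psmb8, Tap1 and Psmb9 follow each other as neighbouring protein-coding genes on chromosome 20. Tap1 and Psmb9 run in opposite directions from a common stretch: their promoter windows, chr20:4668494-4668793 on the minus strand and chr20:4668750-4669049 on the plus strand, overlap by 44 bases. Psme1 and Psme2 lie on chromosome 15 with only Emc9 between them, and Rnf31 follows Psme2.

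Of the 17 member probe sets, 15 had a mean log2(signal + 1) over the 12 arrays above the 30th percentile of all probe sets (5.45) and were tested with limma, with p-values adjusted over all 21729 probe sets that passed. A probe set is called at an adjusted p under 0.05. The other 2 were too dim: RT1-A3 1388256_at read between 1.8 and 11.7 and was under the 30th percentile of every array, and Tap1 1375379_at read between 8.6 and 87.3 and was under it on all 3 arrays at 0h. Each of the 10 genes kept at least 1 tested probe set. Signals of different probe sets are not comparable with each other, so levels are compared only across groups.

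Several immunosubunit, transporter and PA28 genes were lower in 2-week liver, calls in 4-week liver ran both ways and most members were higher in 6-week liver, with RT1-A3 split between its probe sets. At 2 weeks 1 of the 15 tested probe sets was called higher, against 10.8% of all tested, and 6 were called lower, against 10.8%. At 4 weeks 2 were called higher (9.76% of all) and 3 lower (12.3%). At 6 weeks 10 were called higher (9.4% of all) and 1 lower (10.3%). The median log2 change of the members was -0.23 in 2-week liver, -0.03 in 4-week liver and 0.46 in 6-week liver, beside -0.02, -0.05 and -0.02 over all probe sets tested. A moderated F test over the 3 fed groups called 12 of the 15, against 28.3% of all.

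**Figure D1:**
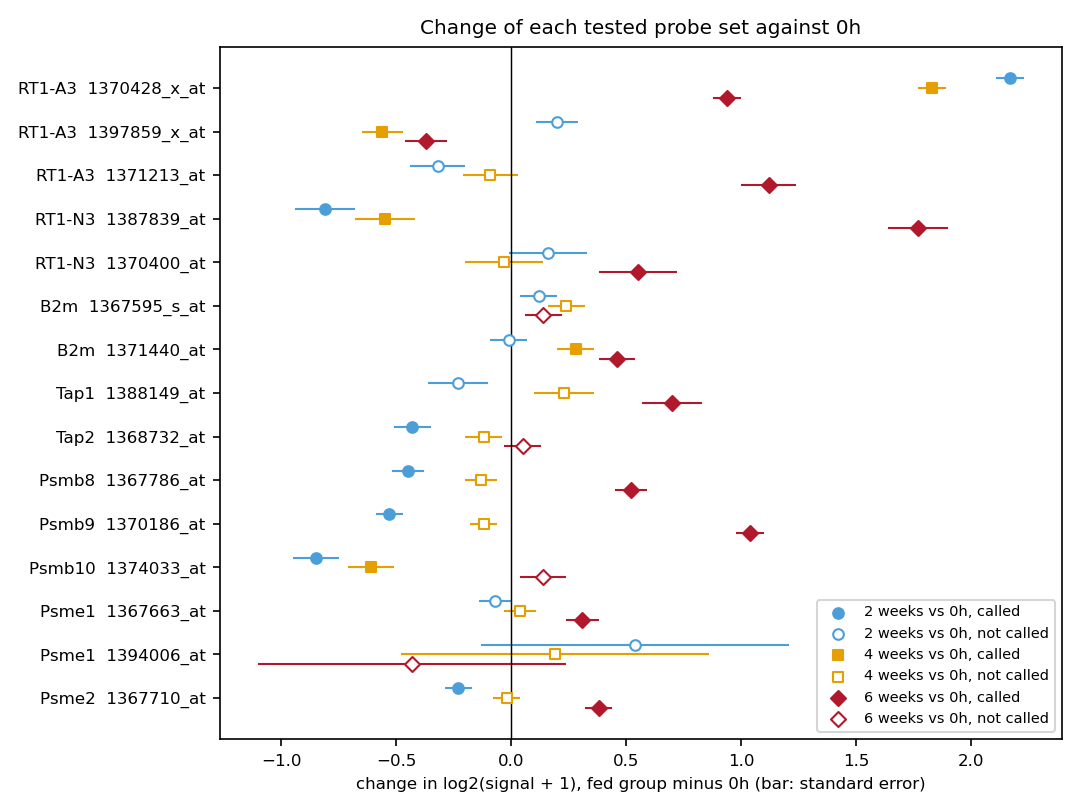
Change in log2(signal + 1) of the 15 tested member probe sets (rows) at 2, 4 and 6 weeks against 0h, with the standard error as a bar and filled markers for called changes (adjusted p under 0.05, limma). Most 2-week markers lie left of 0 and most 6-week markers right of it, whereas the probe sets of RT1-A3 lie on both sides.

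Psmb9, an immunosubunit that takes the place of Psmb6, had signals of 3371.9, 3385.4 and 3206.3 in 0h liver, 2369.9, 2329.4 and 2200.5 in 2-week liver, 3040.6, 3146.5 and 3010.1 in 4-week liver, and 7031.5, 6732.0 and 6669.8 in 6-week liver. Every 2-week array was below every 0h array and every 6-week array was above all others. Psmb9 fell 1.44-fold in 2-week liver (log2 change -0.53 ± 0.06 SE, adjusted p = 3.47e-04, limma) and rose 2.05-fold in 6-week liver (1.04 ± 0.06, adjusted p = 5.21e-06). At 4 weeks its log2 change was -0.12 ± 0.06 and was not called (adjusted p = 0.222).

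Psmb8, which replaces Psmb5, read 5851.7, 5732.7 and 5752.6 in 0h liver, 4497.3, 4213.4 and 3985.2 in 2-week liver, 5566.8, 5428.5 and 4874.6 in 4-week liver, and 8355.3, 8166.3 and 8399.2 in 6-week liver. The order of the groups was the same as for Psmb9, and none of the 3 fed groups overlapped 0h. Psmb8 fell 1.37-fold in 2-week liver (-0.45 ± 0.07, adjusted p = 0.00212) and rose 1.44-fold in 6-week liver (0.52 ± 0.07, adjusted p = 9.56e-04). Its 4-week change of -0.13 ± 0.07 was not called (adjusted p = 0.244).

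Psmb10, which replaces Psmb7, read 2622.9, 2370.7 and 2416.7 in 0h liver, 1458.5, 1341.9 and 1314.2 in 2-week liver, 1506.6, 1545.5 and 1800.4 in 4-week liver, and 2625.5, 2997.0 and 2557.5 in 6-week liver. It was below all 0h arrays at both 2 and 4 weeks, and at 6 weeks it overlapped 0h. Psmb10 fell 1.8-fold in 2-week liver (-0.85 ± 0.10, adjusted p = 3.00e-04) and 1.53-fold in 4-week liver (-0.61 ± 0.10, adjusted p = 0.00178), and its 6-week change was 0.14 ± 0.10 (adjusted p = 0.359).

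Tap1, one chain of the peptide transporter, read 740.0, 854.0 and 871.2 in 0h liver, 653.4, 650.7 and 795.8 in 2-week liver, 815.2, 1072.6 and 1024.9 in 4-week liver, and 1264.3, 1415.3 and 1333.5 in 6-week liver. Only the 6-week arrays stood clear of 0h. Tap1 rose 1.63-fold in 6-week liver (0.70 ± 0.13, adjusted p = 0.00389), while its changes of -0.23 ± 0.13 in 2-week liver and 0.23 ± 0.13 in 4-week liver were not called (adjusted p = 0.227 and 0.228). Tap2, the other chain, read 424.4, 413.6 and 392.8 in 0h liver, 302.6, 328.2 and 280.4 in 2-week liver, 374.2, 367.9 and 389.5 in 4-week liver, and 399.4, 437.4 and 433.6 in 6-week liver. Its low point was at 2 weeks and its 6-week arrays overlapped 0h. Tap2 fell 1.35-fold in 2-week liver (-0.43 ± 0.08, adjusted p = 0.00339), and its changes of -0.12 ± 0.08 in 4-week liver and 0.05 ± 0.08 in 6-week liver were not called (adjusted p = 0.306 and 0.74).

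Psme2, the beta chain of PA28, averaged 4889.7 ± 92.4 in 0h liver, 4173.0 ± 151.4 in 2-week liver, 4807.0 ± 143.7 in 4-week liver and 6355.5 ± 231.4 in 6-week liver (SD, n = 3 each). It fell 1.17-fold in 2-week liver (-0.23 ± 0.06, adjusted p = 0.0263) and rose 1.3-fold in 6-week liver (0.38 ± 0.06, adjusted p = 0.00237), with no overlap with 0h at either time. The 2-week call was lost without any 1 of the 0h arrays (adjusted p = 0.0538 to 0.0816) and without the first or the third 2-week array (0.0666 and 0.0813). Psme1, the alpha chain, averaged 9961.1 ± 306.2 in 0h liver, 9507.8 ± 564.2 in 2-week liver, 10259.8 ± 503.8 in 4-week liver and 12341.6 ± 294.6 in 6-week liver on probe set 1367663_at. It rose 1.24-fold in 6-week liver (0.31 ± 0.07, adjusted p = 0.0124) and was not called in 2-week liver (-0.07 ± 0.07) or 4-week liver (0.04 ± 0.07). The dimmer Psme1 probe set 1394006_at scattered between 16.4 and 154.2 with all groups overlapping, and its changes had a standard error of 0.67 and were not called.

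B2m, the light chain of every classical class I molecule, had its brighter probe set 1367595_s_at between 34066.7 and 45431.2 on all arrays, and none of its changes was called (0.12 ± 0.08 in 2-week liver, 0.24 ± 0.08 in 4-week liver and 0.14 ± 0.08 in 6-week liver). The highest signal of any probe set was between 48816.8 and 60209.6 per array, and whether this probe set was near saturation was not tested. Its 4-week change was called in 4 of the alternative settings, with adjusted p between 0.0057 and 0.0401. On the second probe set, 1371440_at, B2m read 9230.1, 9511.4 and 9238.7 in 0h liver, 9352.4, 9887.0 and 8619.5 in 2-week liver, 11207.0, 10993.1 and 11743.0 in 4-week liver, and 11774.2, 13287.3 and 13389.5 in 6-week liver. Here the 4-week and 6-week arrays all exceeded 0h, while the 2-week arrays did not separate from it. B2m rose 1.21-fold in 4-week liver (0.28 ± 0.08, adjusted p = 0.0296) and 1.37-fold in 6-week liver (0.46 ± 0.08, adjusted p = 0.00288) on 1371440_at. The 4-week call was lost when any 1 of the 0h or 4-week arrays was left out (adjusted p = 0.0542 to 0.082) and when the replicate number was added to the fit (0.0504).

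**Figure D2:**
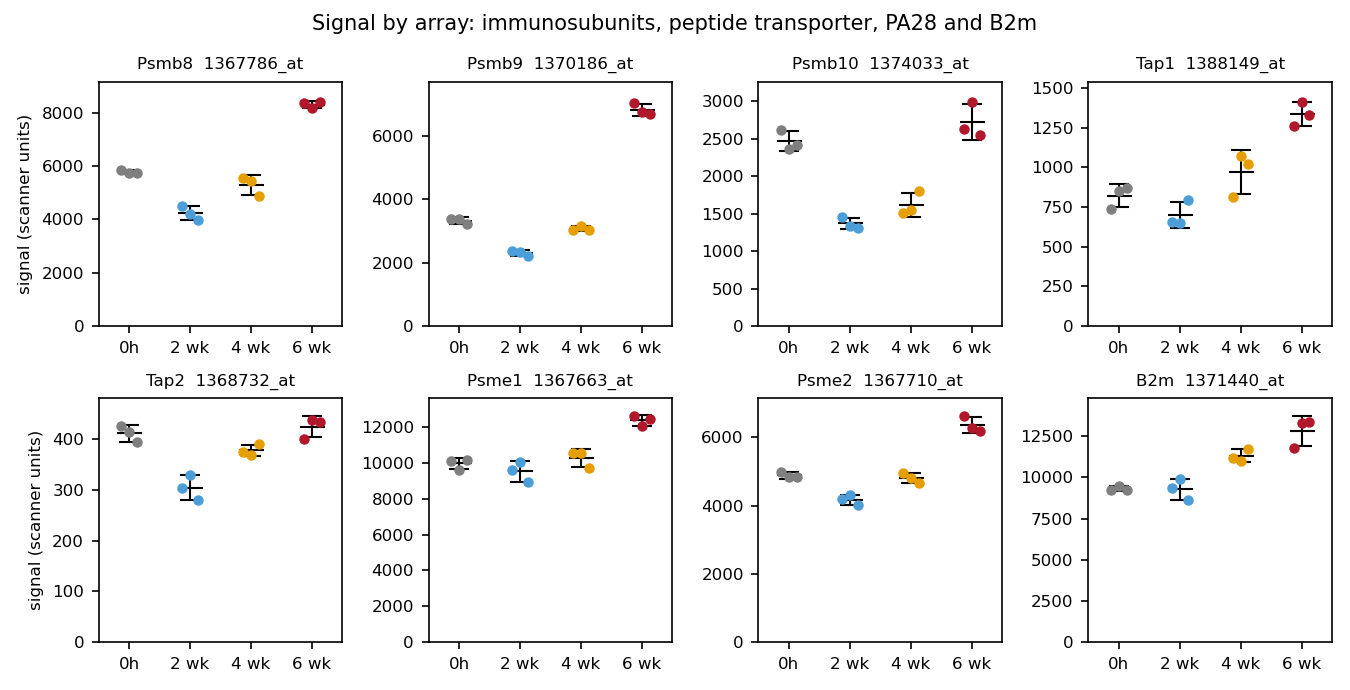
Signal on a linear scale from 0 (vertical axis) for 8 member probe sets in the 4 groups (horizontal axis), with 1 point per array and a cross bar for the mean and SD of 3 arrays. B2m is shown on 1371440_at, and its brighter probe set 1367595_s_at, which had no called change, is not drawn here. Psmb8, Psmb9, Psmb10, Tap2 and Psme2 have their lowest arrays at 2 weeks, and the 6-week arrays of Psmb8, Psmb9, Tap1, Psme1 and Psme2 lie above those of all other groups.

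The heavy chain genes gave the widest changes and the least uniform ones. RT1-N3, a nonclassical class Ib gene, read 287.4, 349.2 and 405.2 in 0h liver on probe set 1387839_at, 195.9, 171.2 and 225.4 in 2-week liver, 231.9, 235.1 and 236.2 in 4-week liver, and 1264.0, 1108.1 and 1159.1 in 6-week liver. It was below 0h at 2 and 4 weeks and far above it at 6 weeks, without overlap at any time. The fall was 1.75-fold in 2-week liver (-0.81 ± 0.13, adjusted p = 0.00249) and 1.47-fold in 4-week liver (-0.55 ± 0.13, adjusted p = 0.0166), and the rise in 6-week liver was 3.41-fold (1.77 ± 0.13, adjusted p = 2.50e-05). Without the third 0h array the 4-week fall was -0.43 and was not called (adjusted p = 0.0551). The second RT1-N3 probe set, 1370400_at, read 217.3, 146.4 and 151.1 in 0h liver and 207.0, 268.0 and 273.0 in 6-week liver, so that these groups overlapped. Its 6-week change of 0.55 ± 0.17 was called by a narrow margin (adjusted p = 0.0484). It was lost with the replicate number in the fit (adjusted p = 0.0806) and when 1 array was left out, except the first of 0h or of 6 weeks (0.0559 to 0.145). Its changes at 2 weeks (0.16 ± 0.17) and 4 weeks (-0.03 ± 0.17) were not called.

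RT1-A3, a classical class Ia gene, had probe sets that moved in opposite directions. On 1370428_x_at it read 1374.5, 1439.7 and 1347.8 in 0h liver, 6336.7, 6492.8 and 5940.5 in 2-week liver, 4883.3, 4962.7 and 4908.4 in 4-week liver, and 2723.2, 2630.7 and 2653.5 in 6-week liver. The 4 groups were fully separate, highest at 2 weeks and lower at each later time. No other member probe set had 4 separate groups in that order. The rise against 0h was 4.51-fold in 2-week liver (2.17 ± 0.06, adjusted p = 6.04e-08), 3.54-fold in 4-week liver (1.83 ± 0.06, adjusted p = 1.24e-07) and 1.92-fold in 6-week liver (0.94 ± 0.06, adjusted p = 8.84e-06).

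On 1371213_at RT1-A3 read 278.9, 291.5 and 283.7 in 0h liver, 200.4, 257.7 and 230.3 in 2-week liver, 271.7, 228.1 and 311.0 in 4-week liver, and 615.9, 609.1 and 635.0 in 6-week liver. This probe set was high at 6 weeks alone, as for Psmb9 and RT1-N3. It rose 2.17-fold in 6-week liver (1.12 ± 0.12, adjusted p = 2.15e-04), and its changes in 2-week liver (-0.32 ± 0.12) and 4-week liver (-0.09 ± 0.12) were not called. On 1397859_x_at RT1-A3 averaged 482.5 ± 30.1 in 0h liver, 552.3 ± 21.8 in 2-week liver, 327.4 ± 17.8 in 4-week liver and 373.0 ± 38.4 in 6-week liver (SD, n = 3 each). It fell 1.47-fold in 4-week liver (-0.56 ± 0.09, adjusted p = 0.00202) and 1.3-fold in 6-week liver (-0.37 ± 0.09, adjusted p = 0.0162), and its 2-week change of 0.20 ± 0.09 was not called (adjusted p = 0.155). The fall at 6 weeks was not called after median centring of the arrays (adjusted p = 0.0684), nor without the second 0h array or the first or the third 6-week array (0.0562 to 0.0581).

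RT1-A3 was thus called higher on 1370428_x_at and lower on 1397859_x_at at both 4 and 6 weeks, and at 2 weeks it was called higher on 1370428_x_at while 1371213_at changed by -0.32 without a call. The ending _x_at marks probe sets whose probes can match other sequences, and class I genes are many, alike and polymorphic. Which transcript or allele each probe set measured was not tested. A difference in class I alleles between the rats of 2 groups cannot be told apart from a change over time.

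**Figure D3:**
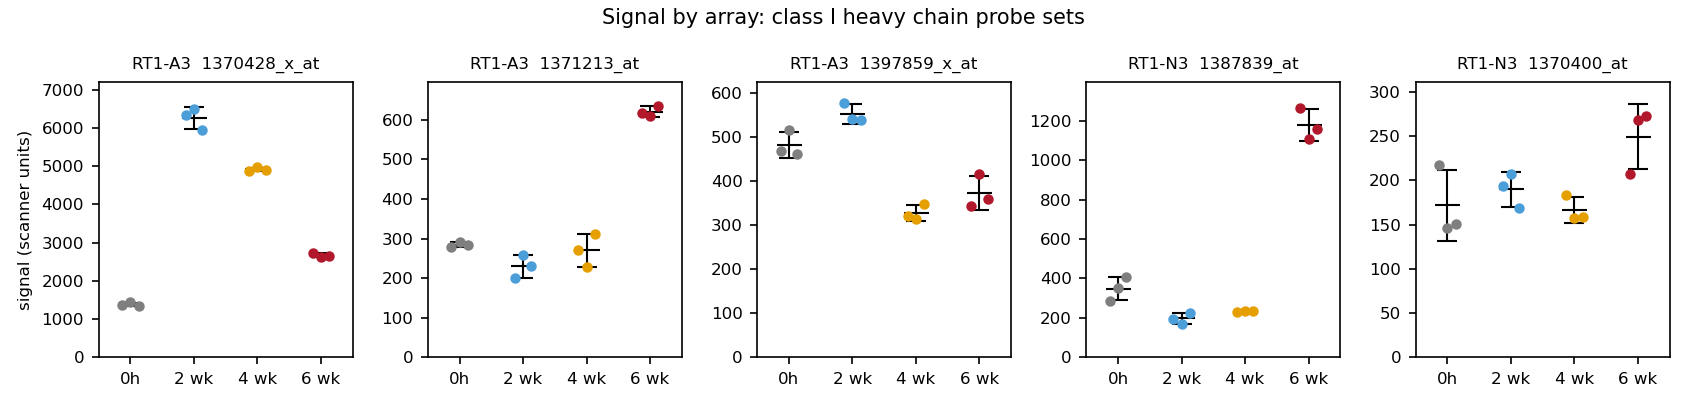
Signal on a linear scale from 0 (vertical axis) of the 3 tested RT1-A3 and 2 RT1-N3 probe sets in the 4 groups (horizontal axis), with 1 point per array and a cross bar for the mean and SD of 3 arrays. RT1-A3 1370428_x_at is highest in 2-week liver, RT1-A3 1371213_at and RT1-N3 1387839_at are highest in 6-week liver, and RT1-A3 1397859_x_at is lower at 4 and 6 weeks than in 0h liver.

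Comparisons between feeding times leave the 0h arrays out of the contrast. At 4 weeks, compared with 2 weeks, 3 member probe sets were called higher, against 3.12% of all tested, and 2 lower, against 4.79%. The 3 were Tap2 (0.31 ± 0.08, adjusted p = 0.0358), Psmb8 (0.32 ± 0.07, adjusted p = 0.026) and Psmb9 (0.41 ± 0.06, adjusted p = 0.00334), and the 2 were RT1-A3 1370428_x_at (-0.35 ± 0.06) and RT1-A3 1397859_x_at (-0.75 ± 0.09). The count of 3 was 1 without the second 4-week array: Tap2 was lost without any 1 of 9 arrays (adjusted p = 0.0524 to 0.113) and Psmb8 without the second or the third 2-week array or the first or second 4-week array (0.0798 to 0.0879). The fall of RT1-A3 1370428_x_at was not called after median centring (adjusted p = 0.0585). In the comparison of 6 with 4 weeks 6 were called higher, against 3.44% of all, and 1 lower, against 2.65%. Those higher in 6-week liver than in 4-week liver were RT1-N3 1387839_at, 5-fold (2.32 ± 0.13, adjusted p = 1.08e-05), RT1-A3 1371213_at, 2.31-fold (1.21 ± 0.12), Psmb9, 2.22-fold (1.15 ± 0.06, adjusted p = 7.24e-06), Psmb10, 1.69-fold (0.75 ± 0.10), Psmb8, 1.57-fold (0.65 ± 0.07), and Psme2, 1.32-fold (0.40 ± 0.06). The 1 that fell was RT1-A3 1370428_x_at (-0.88 ± 0.06, adjusted p = 3.75e-05).

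A comparison of 6 with 2 weeks was added after the values were seen. It called 10 member probe sets higher, against 2.77% of all tested, and 2 lower, against 3.59%. All 3 immunosubunits were higher in 6-week liver than in 2-week liver, Psmb9 by 2.96-fold (1.57 ± 0.06, adjusted p = 7.31e-07), Psmb10 by 1.98-fold (0.99 ± 0.10) and Psmb8 by 1.96-fold (0.97 ± 0.07). Tap1 was 1.92-fold higher (0.94 ± 0.13, adjusted p = 0.0022) and Tap2 1.39-fold higher (0.48 ± 0.08, adjusted p = 0.00577). Psme2, B2m 1371440_at and Psme1 1367663_at differed by 0.61 ± 0.06, 0.46 ± 0.08 and 0.38 ± 0.07 on the log2 scale. RT1-N3 1387839_at was 5.96-fold higher (2.58 ± 0.13) and RT1-A3 1371213_at 2.71-fold higher (1.44 ± 0.12), while RT1-A3 1370428_x_at fell by 1.23 and RT1-A3 1397859_x_at by 0.57 on the log2 scale. The comparisons against 0h share the 0h arrays, and those between feeding times share fed arrays, so their counts are not independent.

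The immunosubunits were also set against the constitutive subunits they replace, as a difference of log2 signals within each array. Psmb5 had mean signals of 5361.0 in 0h liver, 5801.6 in 2-week liver, 6307.5 in 4-week liver and 6512.7 in 6-week liver, Psmb6 of 2554.0, 3548.2, 3392.4 and 3998.9, and Psmb7 of 4008.6, 4865.4, 5021.2 and 4737.4 in the same order. Only the change of each difference over time is given, since it shows unequal change and not that either subunit was steady. At 2 weeks all 3 differences had moved toward the constitutive subunit: Psmb9 relative to Psmb6 by -1.005 ± 0.09 (SE, adjusted p = 7.39e-05), Psmb10 relative to Psmb7 by -1.13 ± 0.13 (adjusted p = 3.21e-04) and Psmb8 relative to Psmb5 by -0.57 ± 0.07 (adjusted p = 4.01e-04). The same 3 differences were still below 0h at 4 weeks, at -0.52 ± 0.09, -0.94 ± 0.13 and -0.36 ± 0.07. At 6 weeks Psmb9 relative to Psmb6 was above 0h by 0.39 ± 0.09 (adjusted p = 0.0131) and Psmb8 relative to Psmb5 by 0.24 ± 0.07 (adjusted p = 0.0323), whereas Psmb10 relative to Psmb7 was at -0.10 ± 0.13 (adjusted p = 0.649). The call for Psmb8 at 6 weeks was lost without the first or the third 0h array (adjusted p = 0.0979 and 0.102), and without any 1 of the 6-week arrays (0.0547 to 0.0915). From 4 to 6 weeks the differences changed by 0.92 ± 0.09, 0.84 ± 0.13 and 0.61 ± 0.07, all called.

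**Figure D4:**
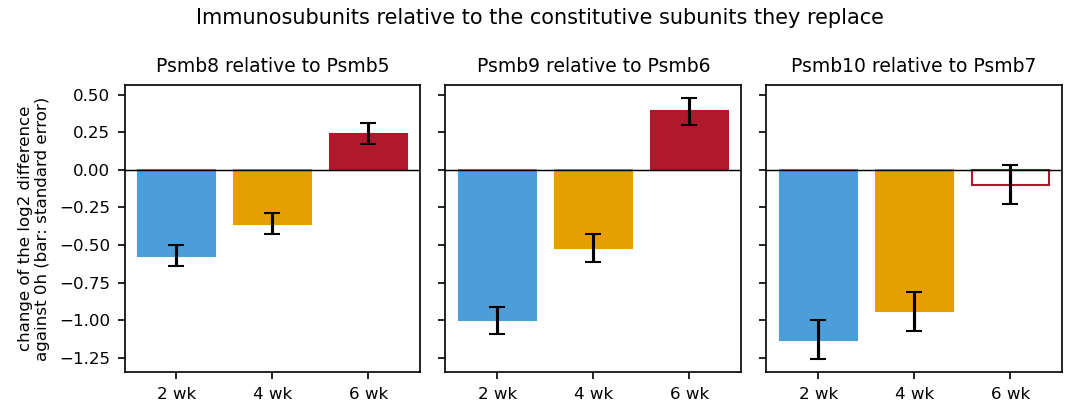
Change against 0h of the log2 signal of each immunosubunit minus that of its constitutive counterpart (vertical axis) at 2, 4 and 6 weeks, with the standard error as a bar and a white bar where the change was not called. All 3 differences are below 0 at 2 and 4 weeks, and those of Psmb8 and Psmb9 are above 0 at 6 weeks.

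The related gene lists are read with the brightest probe set of each gene, of which 13.6% were called higher and 10.9% lower in 2-week liver, 12.4% and 13.2% in 4-week liver, and 12.6% and 10.6% in 6-week liver. Genes of the constitutive core and Psme3 were called in the upward direction only: 3 of 14 tested genes were higher in 2-week liver, 8 in 4-week liver and 11 in 6-week liver, with median log2 changes of 0.12, 0.27 and 0.31. Psmb6 rose by 0.47 ± 0.08, 0.41 ± 0.08 and 0.64 ± 0.08 at the 3 times. Psmb7 rose by 0.28 ± 0.07, 0.32 ± 0.07 and 0.24 ± 0.07. Of the structural subunits, Psma6 rose at all 3 times (0.36 ± 0.07, 0.43 ± 0.07 and 0.34 ± 0.07) and Psma1 in 4-week liver (0.50 ± 0.11). Psmb3 rose in 4-week liver (0.32 ± 0.08) and 6-week liver (0.45 ± 0.08), as did Psma4 (0.36 ± 0.06 and 0.42 ± 0.06). None of these 14 genes was called lower by limma at 2 weeks, when the 3 immunosubunits were, and 0 were lower at an unadjusted p under 0.05 at any of the 3 times. Leaving out 1 array moved the 4-week count to as few as 5 and the 6-week count to as few as 5.

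Genes of peptide trimming and loading divided. Of 8 tested, 2 rose and 1 fell at both 2 and 4 weeks, and 1 rose and 1 fell at 6 weeks. Erap1, the peptidase that trims peptides in the endoplasmic reticulum, fell at all 3 times (-0.64 ± 0.08, -1.48 ± 0.08 and -0.65 ± 0.08), with a mean signal of 1351.2 in 4-week liver against 3774.2 in 0h liver. Calr, the chaperone calreticulin of the loading complex, rose at all 3 times (0.65 ± 0.07, 0.55 ± 0.07 and 0.43 ± 0.07). Npepps, a cytosolic aminopeptidase, rose in 2-week liver (0.42 ± 0.10) and Pdia3, an oxidoreductase of the loading complex, in 4-week liver (0.37 ± 0.07). The 2-week rise count was 1 without the first 0h or the second 2-week array, and the 6-week one was 2 without the second 6-week array.

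Other class I genes carried 27 probe sets over 12 genes, of which 25 were tested. At 2 weeks 2 were called higher and 10 lower, in 4-week liver 6 and 4, and in 6-week liver 12 and 0, with median log2 changes of -0.25, 0.01 and 0.39. Of all probe sets tested, 10.8% were higher and 10.8% lower at 2 weeks. These shares were 9.76% and 12.3% at 4 weeks, and 9.4% and 10.3% at 6 weeks. As with RT1-A3, some genes had probe sets called in both directions, H2-T24 in 2-week liver and both H2-T24 and RT1-Aw2 in 4-week liver. At 6 weeks none did (1 probe set was lower at an unadjusted p under 0.05), and RT1-CE5 had the highest changes (2.63 on 1371209_at and 2.29 on 1388255_x_at). Read with 1 probe set per gene, and with the class I-like genes added, 3 of 15 rose and 4 fell in 2-week liver, 3 and 1 in 4-week liver, and 4 and 2 in 6-week liver. The 1 fall at 4 weeks was 0 without the third 0h array and 2 without the third 4-week array. In that list RT1-CE16 rose in 2-week liver (0.72 ± 0.14) and 4-week liver (0.99 ± 0.14), RT1-Aw2 fell in 2-week liver (-0.56 ± 0.06), and RT1-CE5 fell in 4-week liver (-0.77 ± 0.19) and rose in 6-week liver (0.86 ± 0.19). Of the class I-like genes, Cd1d1, which presents lipids, fell in 2-week liver (-0.71 ± 0.06) and 6-week liver (-0.48 ± 0.06), and Hfe, a regulator of iron uptake, rose at all 3 times (0.41 ± 0.08, 0.47 ± 0.08 and 0.68 ± 0.08).

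Genes that respond to interferon gamma, a list that holds no member, had 1 of 11 called higher and 4 lower in 2-week liver, 4 higher and 3 lower in 4-week liver, and 6 higher and 0 lower in 6-week liver. Their median log2 changes were -0.18, 0.06 and 0.52, and 0 were lower in 6-week liver at an unadjusted p under 0.05 (limma). The 1 rise in 2-week liver was 0 without the first or the third array of 0h or of 2 weeks, and the 3 falls in 4-week liver were 1 without the second or the third 0h array or the first or second 4-week array. The T cell chemokine Cxcl9 fell in 2-week liver (-1.02 ± 0.14), rose in 4-week liver (0.71 ± 0.14) and rose further above 0h in 6-week liver (2.87 ± 0.14, 7.33-fold). Of the guanosine triphosphatases, Igtp rose in 4-week liver (0.39 ± 0.08) and 6-week liver (1.57 ± 0.08), and Irgm rose at all 3 times (0.31 ± 0.08, 0.48 ± 0.08 and 1.20 ± 0.08). Gbp2 fell in 2-week liver (-0.42 ± 0.09) and 4-week liver (-0.68 ± 0.09) and rose in 6-week liver (1.09 ± 0.09), and the ubiquitin-like modifier Ubd did likewise (-0.60 ± 0.10, -0.34 ± 0.10 and 0.67 ± 0.10). Cxcl10, a chemokine of the same receptor as Cxcl9, fell in 2-week liver (-0.79 ± 0.18).

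Among the regulators of these genes, 3 of 13 tested were higher and 1 lower in 2-week liver, 2 and 2 in 4-week liver, and 4 and 0 in 6-week liver (0 lower also at an unadjusted p under 0.05). At 4 weeks leaving out 1 array moved either count to as few as 0, and without the third 0h array the 6-week count of 4 was 2. Irf1, a factor that binds the repeat shown above, fell in 4-week liver (-0.34 ± 0.10) and rose in 6-week liver (0.85 ± 0.10). Irf2 rose in 6-week liver (0.38 ± 0.10), Irf8 fell in 4-week liver (-0.46 ± 0.12), Irf9 rose in 4-week liver (0.28 ± 0.07) and 6-week liver (0.29 ± 0.07), and Nfkb1 and the receptor chain Ifngr1 rose in 2-week liver (0.55 ± 0.16 and 0.40 ± 0.07). Ifng itself read between 5.3 and 73.7, under the 30th percentile on every array of 0h, 2 weeks and 4 weeks and on 1 array of 6 weeks, and was not tested.

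In whole liver, a change in the number of cells of a type and a change in RNA per cell cannot be told apart, and class I genes are expressed by leukocytes as well as by hepatocytes. The 13 T and NK cell markers had a summed signal of 3820 to 3988 in 0h liver, 2614 to 2909 in 2-week liver, 2400 to 2860 in 4-week liver and 4992 to 5272 in 6-week liver. Of 11 tested, 0 rose and 3 fell in 2-week liver, 0 and 6 in 4-week liver, and 2 and 1 in 6-week liver (limma; the falls in 2-week liver were Cd3e, Klrd1 and Ccl5, by 1.19, 0.62 and 0.57). At an unadjusted p under 0.05, 0 rose in 2-week or 4-week liver and 6 fell at each of these times. At 4 weeks Prf1, Nkg7 and Ccl5 fell by 1.25, 0.95 and 0.83, and at 6 weeks Lck and Ccl5 each rose by 0.61 and Gzmb fell by 0.53. No marker was at 0, but Cd8b and Cd2 were under the 30th percentile on all arrays in 0h liver and in 2-week liver. Ccl5, the brightest marker, supplied much of the sum, with mean signals of 1597.2 in 0h liver, 1073.3 in 2-week liver, 903.4 in 4-week liver and 2432.7 in 6-week liver. Without Ccl5, a sum added after the values were seen, the other 12 markers totalled 2202 to 2371 in 0h liver, 1586 to 1812 in 2-week liver, 1589 to 1781 in 4-week liver and 2597 to 2864 in 6-week liver. The part of these markers in the changes of the members was not tested.

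The 4 markers common to leukocytes summed to 4033 to 4237 in 0h liver, 3893 to 4138 in 2-week liver, 2729 to 3136 in 4-week liver and 4768 to 5048 in 6-week liver. None was called in 2-week liver (0 at an unadjusted p under 0.05), all 4 fell in 4-week liver (Laptm5, Ptprc and Cd53 by 0.56, 0.54 and 0.43), and Coro1a rose in 6-week liver (0.42 ± 0.10). The macrophage markers, 9 matched of 10, summed to 34257 to 35358 in 0h liver, 40719 to 43075 in 2-week liver, 30846 to 31741 in 4-week liver and 31056 to 33457 in 6-week liver. At 2 weeks 3 of 9 rose (C1qc, Csf1r and Lyz2 by 0.64, 0.61 and 0.28) and 0 fell, also at an unadjusted p under 0.05 (limma). At 4 weeks 1 rose and 6 fell (Cd163, C1qb and C1qa by 0.77, 0.56 and 0.55), with a median log2 change of -0.49, and at 6 weeks 3 fell (Cd163, C1qb and C1qa by 0.81, 0.43 and 0.43). The 5 endothelial markers summed to 4536 to 4912 in 0h liver, 5085 to 5362 in 2-week liver, 4073 to 4350 in 4-week liver and 3450 to 3878 in 6-week liver. At 2 weeks 1 rose (Tie1 by 0.65) and 0 fell. In 4-week liver and in 6-week liver 0 rose and 1 fell (Stab2 by 0.50 and 0.86, limma). Pecam1, Cdh5 and Kdr were not called at any of these times. Stab2 had a mean signal of 650.1 in 6-week liver against 1183.2 in 0h liver. B cell and dendritic cell markers were matched for 2 of 4 and 2 of 5 genes, with sums of 121 to 232 and 305 to 446. None was called by limma, and 1 B cell marker was lower in 4-week liver at an unadjusted p under 0.05. The part of these cell types in the changes of the members was not tested.

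**Figure D5:**
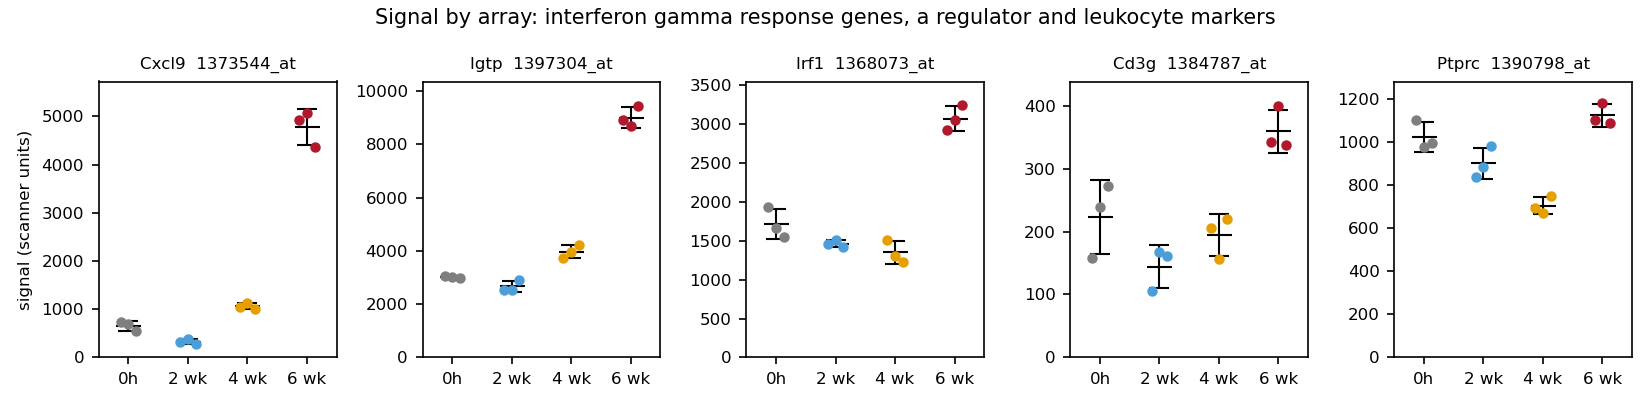
Signal on a linear scale from 0 (vertical axis) of interferon gamma response genes (Cxcl9, Igtp), a regulator of class I genes (Irf1), a T cell marker (Cd3g) and a leukocyte marker (Ptprc) in the 4 groups (horizontal axis), with 1 point per array and a cross bar for the mean and SD of 3 arrays. The 6-week arrays are above those of all other groups for Cxcl9, Igtp, Irf1 and Cd3g, though the 6-week difference of Cd3g was not called (adjusted p = 0.0626, limma) and other T and NK cell markers were level or lower at 6 weeks (Cd3e -0.03, Gzmb -0.53). Ptprc at 6 weeks overlaps 0h.

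Genes most like the members were sought by the distance (root mean square over the 3 log2 changes against 0h) to the mean profile of Psmb8, Psmb9, Psmb10 and Tap1, which was -0.52 in 2-week liver, -0.16 in 4-week liver and 0.60 in 6-week liver. Among 3520 other genes called by the F test, the nearest 5 included Cd3g (0.091), Ubd (0.126), RT1-Aw2 (0.126) and Rnf31 (0.131). Cd3g, a chain of the T cell receptor complex, had log2 differences of -0.62 ± 0.24, -0.18 ± 0.24 and 0.72 ± 0.24, none of them called on its own (adjusted p = 0.0966, 0.652 and 0.0626, limma). The class I gene RT1-Aw2 changed by -0.56 ± 0.06, -0.12 ± 0.06 and 0.39 ± 0.06 on its brightest probe set, 1388071_x_at, and Ubd by -0.60 ± 0.10, -0.34 ± 0.10 and 0.67 ± 0.10. Some other RT1-Aw2 probe sets had unlike profiles, such as 1369110_x_at (0.04, 0.84 and 1.03) and 1370429_at (-1.22, -1.50 and 0.83). Rnf31, a ubiquitin ligase subunit whose gene follows Psme2, changed by -0.41, 0.01 and 0.48. The measure rests on 3 values from 12 arrays and is a description.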

How the data were processed

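Total RNA of 12 liver samples was labelled with biotin and hybridised to 1 array each. The authors deposited 1 linear signal intensity per probe set and array, and GCOS 2.0 is named in the submitters' processing notes. The mean after trimming each array was 500.0 throughout, so the authors' intensities were scaled to a common mean. The same sheet gives the authors' log2 ratios and linear ratios of each fed group against 0h. Its headers number these ratios without naming the arrays compared. Only medians of their log2 ratios are used here, and the linear ratios were not used.

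Signals were converted to log2(signal + 1), so fold changes are on that scale and understate those of dim probe sets. After 57 array controls were left out, 31042 probe sets remained, and the 21729 with a mean above the 30th percentile were tested. The lmFit and eBayes functions of limma 3.58.1 (R 4.3.3) were fitted to all 12 arrays with a mean per group (8 residual degrees of freedom), and p-values were adjusted with Benjamini-Hochberg over all probe sets tested in a comparison. The procedure was tested on simulated data. Precision is limited by the number of arrays.

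Symbols came from the sheet, updated through the RefSeq table of GRCr8 (15176 probe sets by current and 3208 by older symbol), and lists use the brightest probe set of each of 11323 tested genes. The members and lists were chosen with earlier results of these data known, and the comparison of 6 with 2 weeks was added after the values were seen. Every member probe set is reported. Of each other list the up to 3 called genes with the largest change per comparison are named with their called changes, as are the 3 constitutive counterparts and the 5 genes nearest in profile, except that some genes these rules select are not reported here. Alternatives tried were a pseudocount of 16, no filter or a 50th percentile filter, quantile normalization, median centring, trend and robust options, 1 probe set per gene, only the 2 groups compared, the replicate number as a block, the values of the series table, and each array left out.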

Additional observations from a re-analysis of the deposited data

Results flagged for a closer look

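Members that moved one way against 0h at an early time and the other way at 6 weeks are listed here, each called at both times. The difference between the times was tested by limma. Because the members were picked for opposite calls against the same 0h arrays, a difference between the times follows from the choice. Its adjusted p and the separation of the arrays are descriptions and add no support. RT1-N3 1387839_at changed by 1.77 at 6 weeks and by -0.55 at 4 weeks, a difference of 2.32 on the log2 scale (adjusted p = 1.08e-05). Its change at 2 weeks was -0.81, so that the difference of 6 from 2 weeks was 2.58 (adjusted p = 4.51e-06). Psmb9 changed by 1.04 at 6 weeks and -0.53 at 2 weeks, a difference of 1.57 (adjusted p = 7.31e-07). Psmb8 changed by 0.52 and -0.45 at these times, a difference of 0.97 (adjusted p = 5.50e-05). Psme2 changed by 0.38 and -0.23, a difference of 0.61 (adjusted p = 4.21e-04). The 2-week call of Psme2 was lost without any 1 of the 0h arrays, and the 4-week call of RT1-N3 1387839_at without the third 0h array. The second RT1-N3 probe set, 1370400_at, had no early fall that was called (0.16 at 2 weeks and -0.03 at 4 weeks). All arrays at 6 weeks were above all arrays of the earlier time in each of the 5 cases.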

How the results depend on the processing

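The counts of called members at 2 weeks against 0h (1 higher, 6 lower) and the 6-week count of 10 higher stayed within 1.5 times under every alternative run. The number higher at 4 weeks, 2, was 1 without a filter, after quantile normalization, with the replicate block and with only the 2 groups compared, and 1 to 2 with an array left out. The number lower at 6 weeks, 1, was 0 after median centring, with 1 probe set per gene and with only the 2 groups compared, and 0 to 1 with an array left out. Between 4 and 2 weeks the 3 higher were 1 without a filter, 6 with the 50th percentile filter, 5 with trend and robust options, 5 with 1 probe set per gene, 0 with only the 2 groups compared and 1 to 4 with an array left out, and the 2 lower were 1 after median centring, with 1 probe set per gene and with only the 2 groups compared. Between 6 and 2 weeks the 2 lower were 1 with 1 probe set per gene and with only the 2 groups compared. The Psmb8 minus Psmb5 change of 0.24 at 6 weeks was not called without a filter (adjusted p = 0.0849), with the replicate block (0.24, adjusted p = 0.0618) or with only the 2 groups compared (0.1), and was 0.22 to 0.28 with an array left out. Its change of 0.20 from 2 to 4 weeks was called with trend and robust options. With only the 2 groups compared, the Psmb9 minus Psmb6 changes of 0.39 (6 weeks against 0h) and 0.48 (4 against 2 weeks) and the Psmb10 minus Psmb7 change of 0.84 (6 against 4 weeks) were not called. The cause of these shifts was not tested, except that fewer arrays enter some fits. With 1 probe set per gene, RT1-A3 1397859_x_at was left out, so it no longer entered the counts of members called lower.

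Reversals of sign occurred only for changes that were not called. With quantile normalization the 4-week changes of RT1-A3 1371213_at, RT1-N3 1370400_at and Psme1 1367663_at were 0.03, 0.06 and -0.10, and B2m 1367595_s_at changed by 0.05 between 6 and 4 weeks. With median centring RT1-N3 1370400_at and Psme2 changed by 0.05 and 0.05 at 4 weeks and B2m 1371440_at by 0.02 at 2 weeks. With an array left out, RT1-A3 1371213_at changed by -0.19 to 0.03 and RT1-N3 1370400_at by -0.13 to 0.15 at 4 weeks, and B2m 1371440_at by -0.05 to 0.04 at 2 weeks. B2m 1367595_s_at changed by -0.05 to 0.06 between 6 and 2 weeks, and Psme1 1394006_at by -0.23 to 0.53 at 4 weeks, -0.96 to 0.48 at 6 weeks and -1.14 to 0.29 between 6 and 4 weeks.

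The replicate numbers did not pair the arrays: the 18 same-numbered pairs had correlations of -0.04 to 0.06 between their deviations. Counts over all probe sets also moved: with only the 2 groups compared, 229 against 678 were higher and 414 against 1040 lower at 4 over 2 weeks, 237 against 747 and 148 against 576 at 6 over 4 weeks, 236 against 602 and 338 against 781 at 6 over 2 weeks, and 1309 against 2120 and 1713 against 2671 at 4 weeks over 0h. With 1 probe set per gene 1424 against 2349 were lower at 2 weeks and 1426 against 2230 at 6 weeks, over fewer tests. Scaling moved the median of all probe sets by less than 0.1.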

Other observations

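In the authors' deposited table, the median of the 9 log2 ratios of fed to 0h arrays was -0.50 at 2 weeks, -0.10 at 4 weeks and 1.10 at 6 weeks for Psmb9. For RT1-N3 1387839_at the median in the authors' deposited table was -0.80, -0.70 and 1.90. For RT1-A3 the medians in the authors' deposited table also differed by probe set, at 2.00, 1.80 and 0.90 for 1370428_x_at, -0.40, -0.10 and 1.10 for 1371213_at, and 0.20, -0.80 and -0.30 for 1397859_x_at. Tap1 1388149_at stood apart from the fit: the medians in the authors' deposited table were -0.50, -0.10 and 0.90, against fitted changes of -0.23, 0.23 and 0.70. For Psmb10 the medians in the authors' deposited table were -0.70, -0.50 and 0.30, against fitted changes of -0.85, -0.61 and 0.14. The cause of these differences was not tested.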
